A study of Mus musculus with 12 samples.

Results

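Neurons of the paraventricular nucleus (PVN), the hypothalamic nucleus that starts the hormonal stress response, are driven and held back through receptors for glutamate, GABA and glycine, and the genes for the subunits of these receptors are described here. They were taken from the deposited table by their symbols: the Gabr and Gabbr genes for GABA, the Glr genes for glycine, and the Gria, Grik, Grin, Grid and Grm genes for glutamate. The rule found 51 of the 23256 genes, each represented by its transcript row of highest mean over all 12 libraries among the rows that carry its symbol, without regard to any difference between groups. Of the 51 genes, 43 had a mean of at least 1 RPKM (reads per kilobase of transcript per M reads), the level required for the test, and 8 lay below it.

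The animals were C57/Bl6:129S6/SvEvTac hybrids and grew from zygotes injected either with a mixture of 9 microRNA mimics in Dulbecco's phosphate-buffered saline (the miR group, replicates 1 to 6) or with that saline alone (the PBS group, replicates 7 to 12). The mixture had a total concentration of 1 ng/uL, 0.11 ng/uL for each mimic. It held miR-698, miR-532-3p, miR-375 and miR-204, as well as miR-193-5p, miR-32, miR-30c, miR-30a and miR-29c. All embryos of both groups were implanted into CD1 surrogate dams, all animals were males, and the PVN was taken at 18 to 20 weeks of age by a 1.0 mm punch through 300 um slices. There were 6 animals per group with 1 polyadenylated RNA library each, described as biological replicates. The labels do not name litters, so the p-values below measure the spread between these animals.

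GABA-A and glycine receptors are pentameric chloride channels of fast inhibition, and GABA-B receptors are G protein-coupled. AMPA, kainate and NMDA receptors are tetrameric cation channels gated by glutamate, and the metabotropic glutamate (mGlu) receptors act through G proteins. Which subunit genes a region uses sets the kinetics, drug sensitivity and synaptic or extrasynaptic place of its receptors, and in the PVN GABA is the main brake on the neurons that release corticotropin-releasing hormone. MicroRNAs act by pairing of their seed, the bases near their 5′ end, with sites in the 3′ untranslated regions (3′ UTRs) of messenger RNAs.

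The mature sequences of 7 of the 9 mimics are shown because their seeds are what a direct effect on a subunit gene would be read through. They are from RefSeq, run from 5′ to 3′, and have bases 2 to 8, the seed, in capitals. The labels give the arm for few of the mimics, and the arm shown for the others is the one usually meant by the plain name.
miR-29c: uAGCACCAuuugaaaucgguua
miR-30a: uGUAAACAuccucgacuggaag
miR-30c: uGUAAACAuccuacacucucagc
miR-32: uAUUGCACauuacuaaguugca
miR-204: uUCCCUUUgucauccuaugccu
miR-532-3p: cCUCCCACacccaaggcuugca
miR-698: cAUUCUCGuuuccuucccu

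miR-30a and miR-30c share a seed, so the 7 sequences hold 6 distinct seeds. The mimics were injected at the zygote stage and the RNA is from adults, so matches to these seeds are given further on as a description of the subunit genes.

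Depth was 22.8 to 45.1 M reads per library in miR and 27.6 to 38.1 M in PBS. Of the 8 PVN markers all were present in every library, among them Avp (vasopressin) at 372 to 1564 RPKM and Crh at 5.32 to 19.6 RPKM. Of these markers Avp, Crh, Sim1 and Pou3f2 were lowest in PBS replicate 7. Brs3 was highest there, at 2.20 RPKM, while Oxt and Otp were lowest in miR replicate 6 and Trh in miR replicate 5. PBS replicate 7 also had the highest oligodendrocyte marker sum (1466 RPKM, against 411 to 934 RPKM in the other 11 libraries). The PBS group is split: the noncoding transcript Meg3 stood at 158, 316, 190 and 245 RPKM in replicates 8, 9, 10 and 12, against 49.9 to 68.1 RPKM in PBS replicates 7 and 11 and the miR libraries. Results are therefore given with and without PBS replicates 7 and 11.

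GABA-A receptor genes had the highest summed level of the receptor families of fast transmission in this nucleus. It was 452 RPKM over 18 genes as the mean of the 12 libraries, and this family also had the most genes in its sum. AMPA receptor genes summed to 184 RPKM over 4 genes and NMDA receptor genes to 112 RPKM over 7. Glycine receptor genes summed to 102 RPKM and kainate receptor genes to 74.5 RPKM, over 5 genes each. The genes of the G protein-coupled receptors summed to 201 RPKM for GABA-B and 64.8 RPKM for mGlu. RPKM is a level per transcript length, so genes of unlike length can be set side by side, but it does not give the protein or the number of receptors. The part of transcript GC content in the order of these levels was not tested. In tissue punches, fewer cells of a type and less RNA per cell cannot be told apart.

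**Figure D1:**
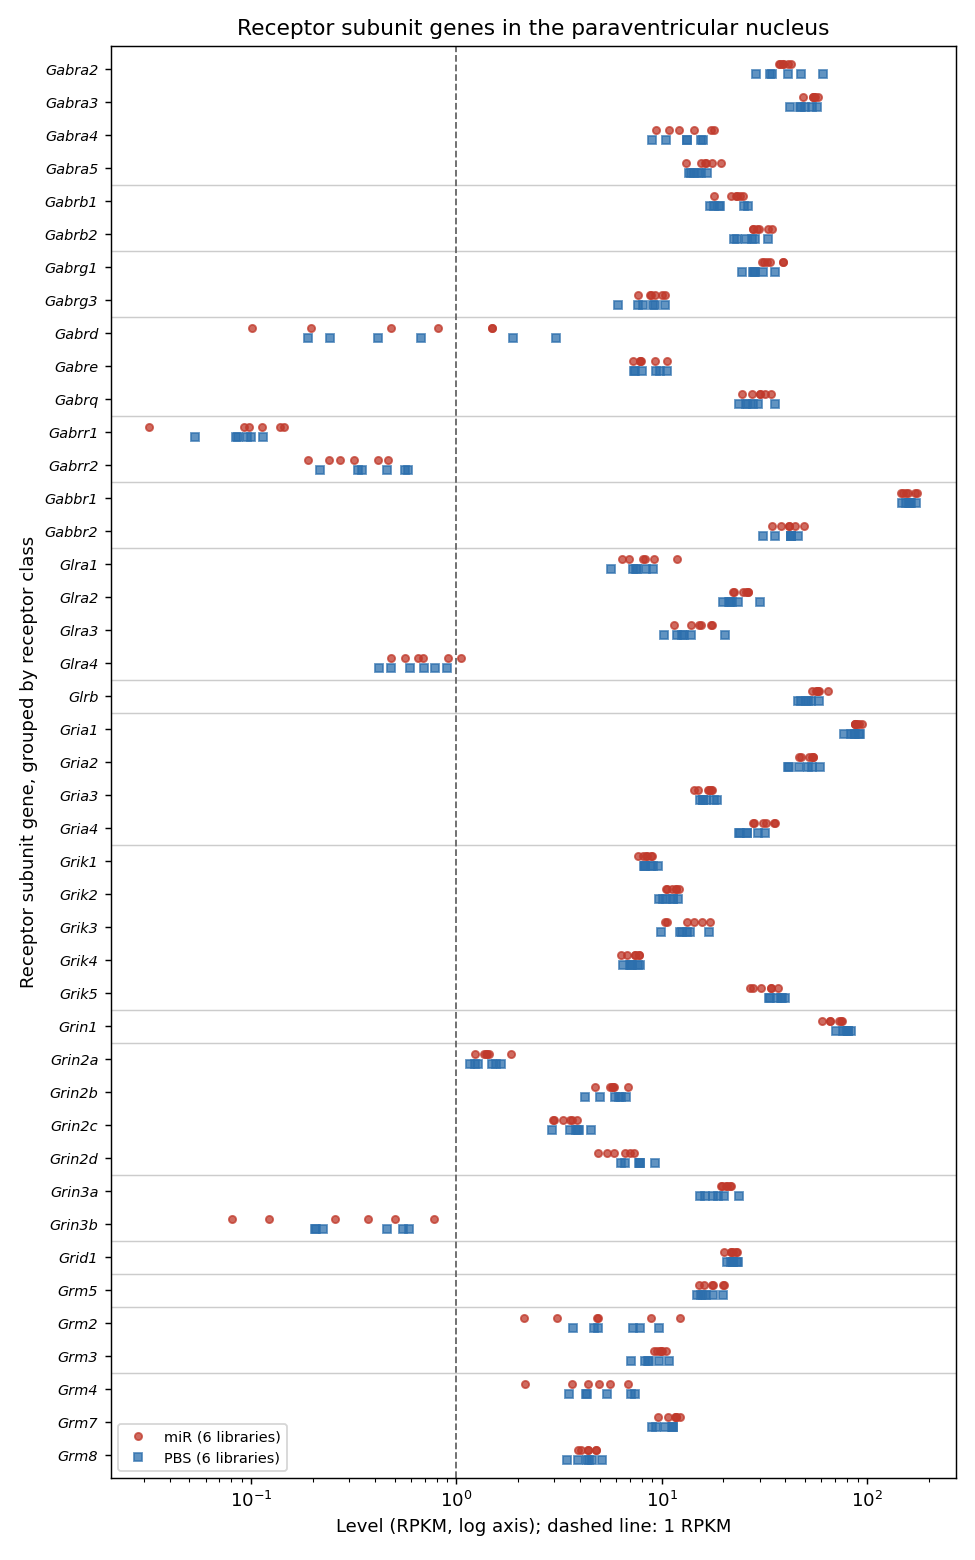
Level of receptor subunit genes (RPKM, log axis) in the 6 miR libraries (circles) and the 6 PBS libraries (squares), grouped by receptor class. Gabra6, Gabrr3 and Grm6, listed at 0 in 10 or 11 of 12 libraries, are not drawn; Gabbr1 is highest at 160.1 RPKM, and the groups overlap for the genes tested.

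Among the alpha subunits, which with the beta subunits form the GABA binding site, Gabra3 (chromosome X, 69678015 to 69901585 in build mm9) measured 52.1 RPKM and Gabra2 40.3 RPKM as means of the 12 libraries. Gabra3 stood above Gabra2 in 10 of 12 libraries. The exceptions were PBS replicates 7 and 8, where Gabra2 reached 61.0 and 47.8 RPKM. Gabra5 (15.6 RPKM) and Gabra4 (13.3 RPKM), whose products are found in many extrasynaptic receptors, kept their order in 9 of 12 libraries and overlapped in range.

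Of the beta subunits Gabrb2 measured 28.5 RPKM and Gabrb1 21.7 RPKM, in this order in 12 of 12 libraries although their ranges overlapped. Of the gamma subunits, which hold receptors at synapses, Gabrg1, with a limited distribution in the brain, measured 31.9 RPKM and Gabrg3 8.80 RPKM. The ranges of Gabrg1 and Gabrg3 did not overlap.

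Theta and epsilon, encoded by Gabrq and Gabre, are rarer subunits known from the hypothalamus and brainstem, and both were present. Gabrq (chromosome X, 70070775 to 70083883) measured 29.0 RPKM, between Gabrb2 at 28.5 RPKM and Gabrg1. Gabre measured 8.61 RPKM. By contrast Gabrd, whose delta subunit mediates tonic inhibition in the thalamus, cerebellum and hippocampus, had a mean of 0.921 RPKM and a range from 0.1003 to 3.07 RPKM. Gabra6, the alpha subunit of cerebellar granule cells, was listed at 0 in 10 of 12 libraries and reached 0.0319 RPKM. Reads that a count of 0 allows, 3 per library, correspond to 0.0273 to 0.0541 RPKM for this transcript.

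The rho subunits, best known from the retina, were all below 1 RPKM. Gabrr2 (chromosome 4, 33150087 to 33182840) was the highest of the 3, at 0.366 RPKM. It ran from 0.189 over a median of 0.294 to 0.466 RPKM in miR, compared with 0.217 over 0.402 to 0.579 RPKM in PBS, and the groups overlapped. Gabrr1 had a mean of 0.0958 RPKM, and Gabrr3 was listed at 0 in 11 of 12 libraries. Gabrr2 was above 0 in all 12, and its lowest value, 0.189 RPKM, lay above the 0.0365 to 0.0724 RPKM that 3 reads correspond to for its transcript.

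The GABA-A genes lie in clusters, and neighbours differed in level. The chromosome 5 cluster (71142286 to 72528483) holds Gabrg1, Gabra2, Gabra4 and Gabrb1 with means of 13.3 to 40.3 RPKM. On the X chromosome (69502771 to 70083883) Gabre, Gabra3 and Gabrq measured 8.61, 52.1 and 29.0 RPKM.

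Gabbr1 (chromosome 17, 37182911 to 37211250), the ligand-binding subunit of the GABA-B receptor, was the most abundant of the 51 genes at 160.1 RPKM. Its obligate partner Gabbr2, which couples to the G protein, measured 40.9 RPKM. The ratio of the pair was 3.95 on average, from 3.48 to 4.77 across the libraries. Other transcript rows of a gene were not added to these levels.

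Glrb (chromosome 3, 80647526 to 80717546), whose product binds the scaffold gephyrin and anchors glycine receptors at synapses, measured 54.7 RPKM, 1.17 times the sum of the 4 alpha genes. Of that alpha sum Glra2 (chromosome X, 161566949 to 161764913), the alpha subunit best known from immature neurons, held 50.9% ± 2.69 (SD, n = 12). Glra3 held 30.5%, and Glra1, the main alpha subunit of the adult spinal cord and brainstem, held 17.2%. Glra2 was above Glra3 in 12 of 12 libraries and Glra3 above Glra1 in 11 of 12, with miR replicate 2 the exception. Glra4 measured 0.684 RPKM.

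The AMPA receptor genes kept 1 order in all 12 libraries without overlap of their ranges. Gria1 (chromosome 11, 56825120 to 57143746) held 47.9%, Gria2 27.3%, Gria4 15.9% and Gria3 8.99%. Gria2, whose edited product makes AMPA receptors impermeable to calcium, thus stood below Gria1, at 50.3 against 88.1 RPKM. A further transcript row of Gria1, which has no symbol in the table and so was outside the rule, was higher than the row used in 12 of 12 libraries, at a mean of 91.3 RPKM. With that row in its place, the AMPA sum would be 187.6 RPKM rather than 184 RPKM, and the shares 48.8% for Gria1, 26.8% for Gria2, 15.6% for Gria4 and 8.83% for Gria3.

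In the kainate family Grik5 (chromosome 7, 25794870 to 25857388), a high-affinity subunit that needs another kainate subunit to form a channel, held 45.8% ± 3.97 (SD, n = 12) at 34.2 RPKM. Its range lay above those of the other 4 genes. Grik3 held 18.0%, Grik2 15.0%, Grik1 11.5% and Grik4 9.70%, and Grik3 and Grik2 swapped places in 3 of 12 libraries.

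Grin1 (chromosome 2, 25146697 to 25174683), the obligate NMDA receptor subunit, measured 74.0 RPKM, 4.20 times the sum of the 4 GluN2 genes (range 3.80 to 4.79). That sum was only 17.7 RPKM. Grin2d (chromosome 7, 53087853 to 53122051), which gives slow channels with weak magnesium block, held 38.9% of it and Grin2b 32.7%. Grin2d was above Grin2b in 10 of 12 libraries. Grin2c held 20.3%, and Grin2a, the subunit that dominates adult cortex, 8.10% at 1.42 RPKM. Grin3a (chromosome 4, 49678098 to 49857953), whose subunit lowers calcium entry, measured 19.7 RPKM, 1.13 times the whole GluN2 sum (range 0.829 to 1.39). Grin3b, best known from motor neurons, measured 0.361 RPKM.

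Of the delta receptor genes, whose products bind cerebellins at synapses, Grid1 (chromosome 14, 35633322 to 36394301) measured 22.2 RPKM. It varied least of the 43 tested genes, with a coefficient of variation of 4.71%. Of the mGlu genes Grm5 (chromosome 7, 94732678 to 95283573), of the mostly postsynaptic group I, was highest at 17.3 RPKM. Group II was led by Grm3 (chromosome 5, 9485236 to 9725352), which astrocytes also express, at 9.33 RPKM. Group III, the mostly presynaptic receptors, was led by Grm7 (chromosome 6, 110595592 to 111517224) at 10.9 RPKM, with Grm8 at 4.34 RPKM. Grm6, the receptor of retinal ON bipolar cells, was listed at 0 in 11 of 12 libraries.

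Of the tested subunit genes Grm2 and Grm4 varied most between libraries, with coefficients of variation of 48.7% and 31.9%. Gabra4 at 22.7% and Glra3 at 20.6% came next, and Gabrd, below the filter, had 97.8%. Grm2 was highest in miR replicate 3 at 12.3 RPKM and lowest in miR replicate 6 at 2.13 RPKM. In those libraries the thalamic transcription factor gene Tcf7l2 was likewise highest, at 40.2 RPKM, and lowest, at 2.53 RPKM. Grm4 was lowest in the same miR replicate 6, at 2.17 RPKM, and highest in PBS replicate 9, at 7.39 RPKM, where Tcf7l2 was 28.1 RPKM. Gabrd was highest in PBS replicate 10, at 3.07 RPKM with Tcf7l2 at 22.5 RPKM, and lowest in miR replicate 6, at 0.1003 RPKM. Gabra4 was highest in miR replicate 3, at 17.9 RPKM, and lowest in PBS replicate 12, at 8.96 RPKM with Tcf7l2 at 4.19 RPKM. Glra3 was also lowest in PBS replicate 12, at 10.2 RPKM, but highest in PBS replicate 7, at 20.5 RPKM with Tcf7l2 at 18.9 RPKM. The other thalamic markers followed Tcf7l2 in part. Calb2, Ntng1 and Prox1 were also highest in miR replicate 3, but Lef1, Plekhg1, Synpo2 and Prkcd in PBS replicate 9 and Rgs16 and Rora in miR replicate 5. Besides Tcf7l2 only Calb2 was lowest in miR replicate 6. All 10 thalamic markers were above 0 in every library. Their sum ran from 171 to 441 RPKM in miR, compared with 205 to 349 RPKM in PBS, with Calb2 alone at 134 to 329 RPKM over the 12 libraries. The part of thalamic tissue at the edge of the punch in these levels was not tested. Between groups the thalamic markers had a median log2 difference of -0.04, with 4 of 10 higher in miR.

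**Figure D2:**
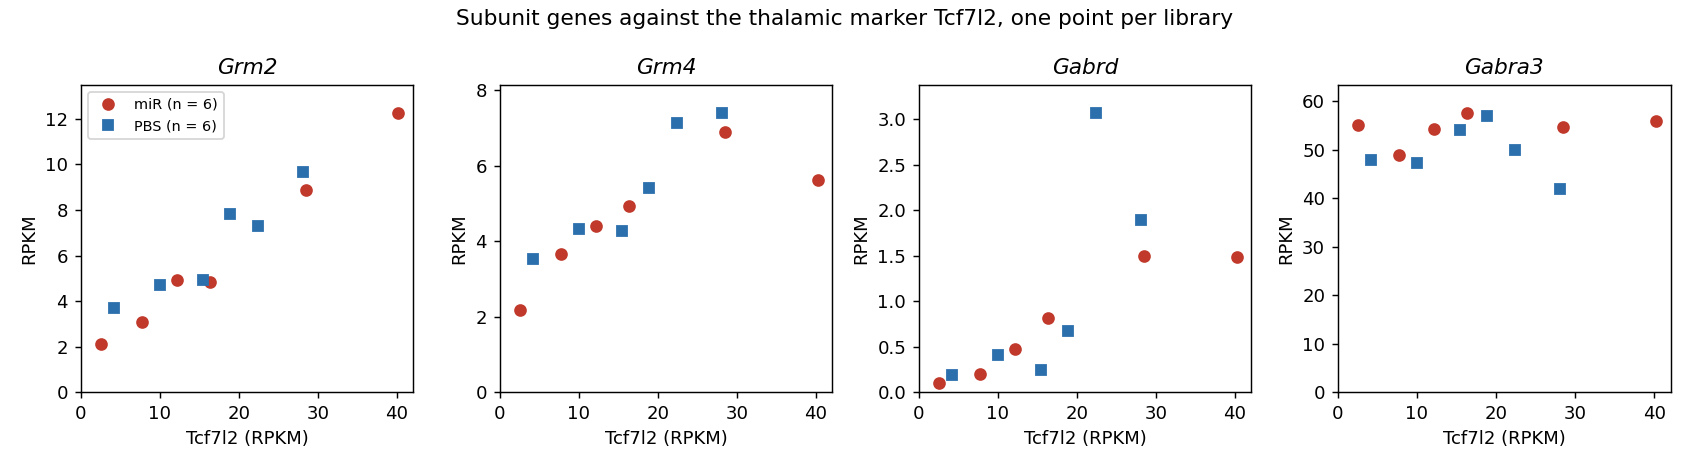
Level of Grm2, Grm4, Gabrd and Gabra3 (RPKM) against Tcf7l2 (RPKM), 1 point per library (circles miR, squares PBS). Grm2 is 12.3 RPKM where Tcf7l2 is 40.2 and 2.13 RPKM where it is 2.53, whereas Gabra3 stays between 42.0 and 57.6 RPKM.

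The subunit make-up was much alike in miR and PBS. The largest differences in share were for Grin2d, 36.8% ± 3.56 of the GluN2 sum in miR and 41.0% ± 3.74 in PBS (SD, n = 6 each), and for Grik5, 43.8% ± 4.34 of the kainate sum in miR and 47.9% ± 2.37 in PBS. The ranges of the groups overlapped for both, and for every other share computed. Gria4 took 16.7% ± 1.63 of the AMPA sum in miR and 15.0% ± 1.40 in PBS. Grin2d and Grik5 had the highest transcript GC content of their classes, 65.0% and 62.3%. Shares were described and not tested, and they were taken from values without a correction for GC content.

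No receptor subunit gene passed the test of miR against PBS. With limma on log2(RPKM + 0.5), 0 of the 43 tested subunit genes passed an adjusted p of 0.05, as did 0 of all 13273 tested genes (0%), and the smallest adjusted p of a subunit gene was 0.177. The unadjusted p was under 0.05 for 9 subunit genes, or 20.9%, beside 20.2% of all tested genes, so their share is that of the background. Of these, 6 were higher in miR, where 9.12% of all genes were, and 3 were lower, where 11.1% of all genes were. The largest difference of a subunit gene was 0.28 on the log2 scale. For none of the 43 did the libraries of the groups separate without overlap, which 0.482% of all genes did.

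Most of the small differences lay on the higher side in miR. Of the 43 subunit genes 31 were higher and 12 lower in miR, or 72.1% higher, beside 52.9% of all genes, and their median log2 difference was 0.07, beside 0.01 over all genes. GABA and glycine receptor genes were higher in miR in 16 of 19 cases (median 0.13), and 5 had an unadjusted p under 0.05, each higher. Glutamate receptor genes were higher in 15 of 24 cases with a median of 0.03. Of their 4 with an unadjusted p under 0.05, 1 was higher and 3 lower. The difference between the inhibitory and the excitatory genes was not tested.

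**Figure D3:**
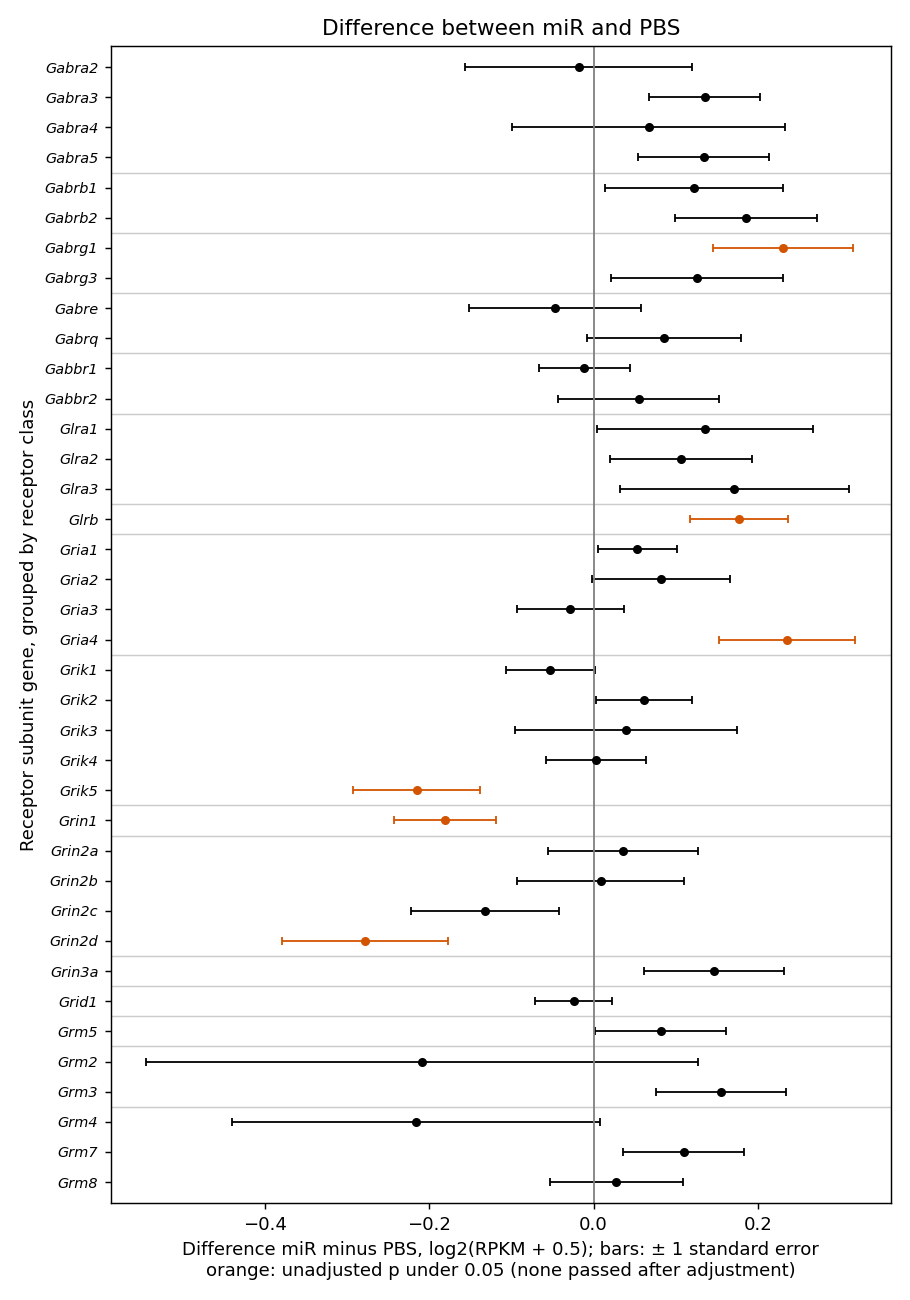
Log2 difference of miR minus PBS on the log2(RPKM + 0.5) scale for 38 of the 43 tested subunit genes, with bars of ± 1 standard error (n = 6 per group). The 6 genes in orange had an unadjusted p under 0.05, with 3 above and 3 below 0; no gene passed after adjustment.

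Of the GABA-A genes Gabrb2 (chromosome 11, 42233259 to 42446093) ran from 27.7 over a median of 29.4 to 34.5 RPKM in miR, compared with 22.5 over 26.6 to 32.9 RPKM in PBS. The groups overlapped, with PBS replicate 7 the highest of PBS. The log2 difference was 0.19 (standard error 0.0869, adjusted p = 0.247 in limma), with means of 30.3 ± 2.80 and 26.7 ± 3.79 RPKM (SD, n = 6).

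Gabrg1 (chromosome 5, 71142286 to 71233856) ran from 30.7 over 33.2 to 39.2 RPKM in miR, compared with 24.7 over 28.4 to 35.5 RPKM in PBS, with PBS replicate 7 the highest of its group. Means of 34.5 ± 3.76 and 29.3 ± 3.67 RPKM (SD, n = 6) gave a log2 difference of 0.23 (standard error 0.0853, adjusted p = 0.191 in limma). Gabrq overlapped fully, at 29.8 ± 3.35 RPKM in miR against 28.2 ± 4.19 RPKM in PBS (SD, n = 6), a log2 difference of 0.09.

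For the GABA-B receptor, Gabbr1 ran from 146.5 over 156.7 to 175.7 RPKM in miR, compared with 148.5 over 161.3 to 173.4 RPKM in PBS. The ranges nearly coincided, and the log2 difference was -0.01 (standard error 0.0559, adjusted p = 0.924 in limma). Its sign changed with the scaling of the libraries.

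Glrb had the smallest p of all subunit genes. It ran from 54.2 over 57.4 to 64.7 RPKM in miR, compared with 46.4 over 51.1 to 58.7 RPKM in PBS, and the miR libraries were all above the PBS median. The means of 58.1 ± 3.54 and 51.4 ± 4.39 RPKM (SD, n = 6) gave a log2 difference of 0.18 (standard error 0.0596, unadjusted p = 0.00995, adjusted p = 0.177 in limma). Glra2 measured 24.7 ± 1.86 RPKM in miR against 23.0 ± 3.62 RPKM in PBS, a log2 difference of 0.11 (adjusted p = 0.479 in limma).

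Among the excitatory subunit genes with an unadjusted p under 0.05, Gria4 (chromosome 9, 4478263 to 4796234), whose product has fast kinetics, was the 1 gene higher in miR. It ran from 27.9 over 31.8 to 35.6 RPKM in miR, compared with 23.8 over 25.9 to 32.0 RPKM in PBS. PBS replicates 7 and 11 were the highest of PBS. The means of 31.7 ± 3.32 and 26.9 ± 3.25 RPKM (SD, n = 6) gave a log2 difference of 0.24 (standard error 0.0831, adjusted p = 0.182 in limma). Gria1 differed little, at 89.7 ± 2.77 and 86.5 ± 5.54 RPKM and a log2 difference of 0.05.

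Grin1 ran from 60.3 over 69.8 to 75.5 RPKM in miR, compared with 70.4 over 79.8 to 83.6 RPKM in PBS. In 6 of 6 miR libraries the level was under the PBS median, and PBS replicate 7 was the lowest of its group. The means were 69.4 ± 6.16 and 78.6 ± 4.63 RPKM (SD, n = 6), a log2 difference of -0.18 (standard error 0.0623, adjusted p = 0.179 in limma). Grin2d ran from 4.92 over 6.25 to 7.31 RPKM in miR, compared with 6.37 over 7.78 to 9.24 RPKM in PBS, and its means were 6.19 ± 0.929 and 7.60 ± 1.03 RPKM. Its log2 difference of -0.28 was the largest of the subunit genes (standard error 0.101, adjusted p = 0.186 in limma). Grin3a measured 20.6 ± 0.932 RPKM in miR against 18.7 ± 3.03 RPKM in PBS, with the PBS range (15.4 to 23.8 RPKM) enclosing that of miR (19.4 to 21.7 RPKM).

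Grik5 ran from 27.1 over 32.1 to 37.1 RPKM in miR, compared with 33.4 over 37.4 to 39.7 RPKM in PBS, with replicates 7 and 11 the lowest PBS libraries. The means of 31.7 ± 3.95 and 36.7 ± 2.63 RPKM (SD, n = 6) gave a log2 difference of -0.22 (standard error 0.0773, adjusted p = 0.185 in limma). The leading genes of the delta and mGlu classes all overlapped between groups. Grid1 measured 22.0 ± 1.15 and 22.4 ± 1.00 RPKM in miR and PBS, Grm5 17.8 ± 1.95 and 16.8 ± 1.80 RPKM, Grm3 9.82 ± 0.464 and 8.83 ± 1.27 RPKM, and Grm7 11.3 ± 0.981 and 10.4 ± 1.05 RPKM. The smallest adjusted p of these 4 in limma was 0.279, for Grm3.

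**Figure D4:**
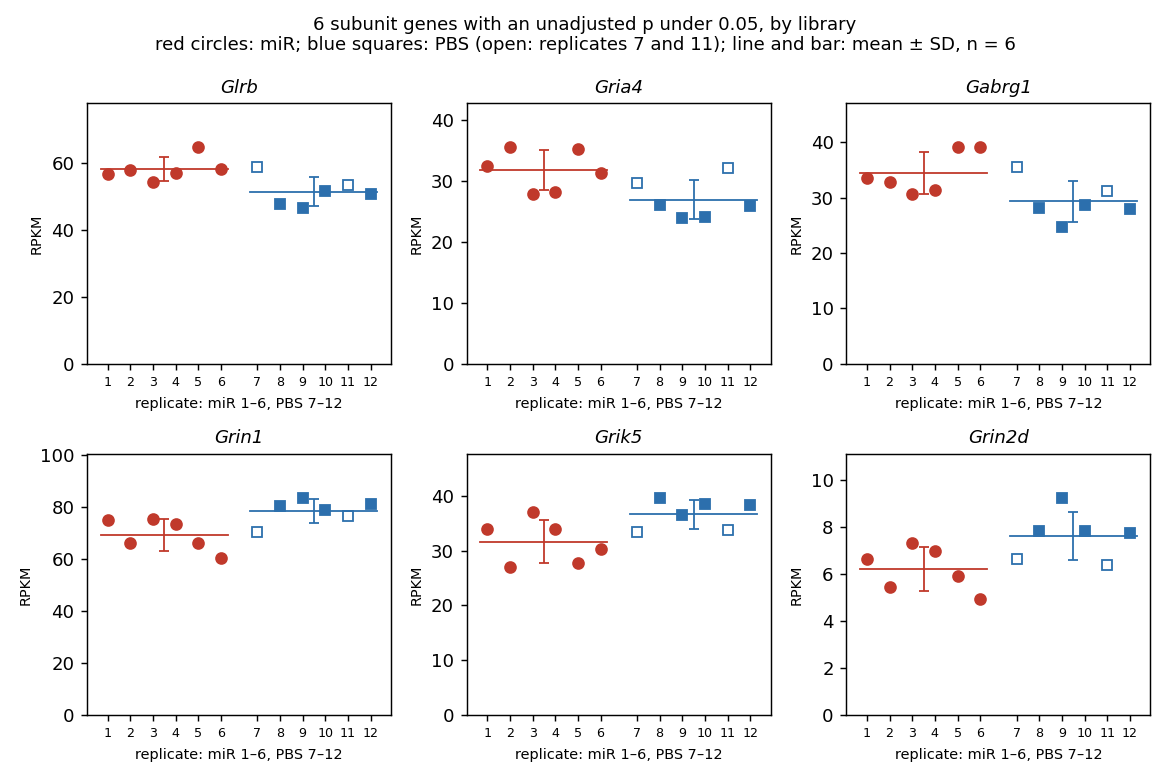
Level (RPKM, axes from 0) of 6 subunit genes with an unadjusted p under 0.05 in each library, with the mean and SD of each group (n = 6). PBS replicates 7 and 11 are drawn open: Glrb, Gria4 and Gabrg1 are higher and Grin1, Grik5 and Grin2d lower in miR, and the groups overlap in all 6 panels.

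The number of genes called rested on PBS replicates 7 and 11. Without both, limma called 3107 of 13273 genes (23.4%), and 14 of the 43 subunit genes, 11 of them higher and 3 lower in miR. The higher genes included Gabra3, Gabrb1, Gabrb2, Gabrg1, Glrb, Gria4, Grin3a and Grm3, and the lower ones were Grin1, Grik5 and Grin2d. In that comparison of 6 with 4 libraries the log2 difference was 0.24 for Glrb, 0.32 for Gabrg1 and -0.38 for Grin2d. These 2 PBS libraries were singled out because they lay with the miR libraries in Meg3, so the counts and differences without them describe the dependence on them and are no test of the injection. With libraries weighted by their estimated quality 22.8% of all genes and 12 of the 43 subunit genes, 9 higher and 3 lower, were called. That quality was estimated from the spread around the miR and PBS means, so a library far from its group counted less. The weighted counts too are no test of the injection. Leaving out PBS replicate 7 alone gave 2 of the 43 subunit genes, Gabrg1 and Glrb, beside 909 of all 13273 genes. Leaving out PBS replicate 11 alone gave 1 of the 43, beside 429 of all 13273 genes. Against PBS replicates 7 and 11 alone, 14 of the 43 were higher and 29 lower in miR, with a median of -0.04 and 0 called by limma (1 at an unadjusted p under 0.05). These last counts were chosen after the data were seen.

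The differences moved with the base composition of the transcripts. The 6 higher genes with an unadjusted p under 0.05 had a transcript GC content of 35.3 to 43.4%, and the 3 lower genes one of 59.1 to 65.0%. Across the 43 subunit genes the log2 difference had a Spearman correlation of -0.65 with GC content, beside -0.64 across 13115 genes. Without PBS replicates 7 and 11 the correlation was -0.72 over the subunit genes and -0.62 over all genes. Against PBS replicates 7 and 11 alone it was -0.16 and -0.24. Genes share their libraries and are not independent replicates, so these correlations are a description. When each library was corrected for its trend with GC content, 1 subunit gene (Gria4) had an unadjusted p under 0.05, beside 12% of all genes, and 0 were called by limma. The corrected log2 differences were 0.06 for Glrb, 0.10 for Gabrg1, 0.09 for Gabrb2, 0.14 for Gria4, -0.04 for Grin1, -0.06 for Grik5 and -0.13 for Grin2d. The correction removes any difference that follows GC content, whatever its origin. The median over subunit genes was then 0.01, with 27 of 43 higher in miR. With the correction and without PBS replicates 7 and 11, 1 of the 43 subunit genes was called, Grin3a, beside 1400 of 13115 genes. A fit without those libraries is, as above, no test of the injection.

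**Figure D5:**
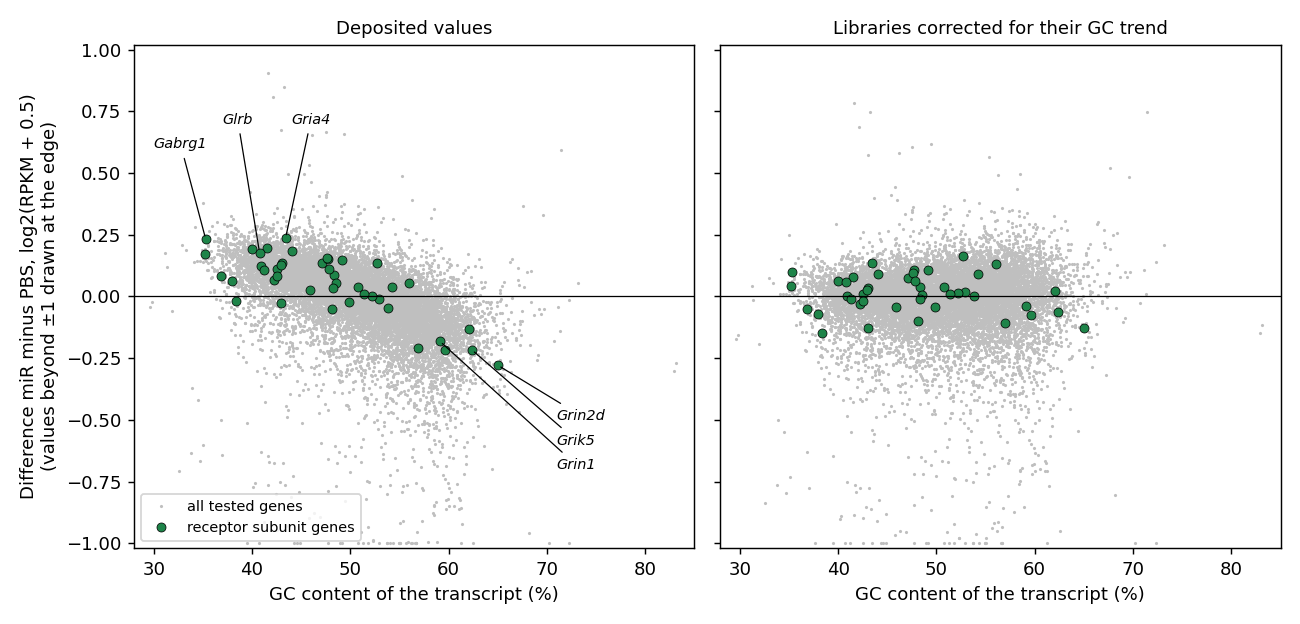
Log2 difference of miR minus PBS against transcript GC content (%) for all tested genes (grey) and the 43 subunit genes (green), before (left) and after (right) correction of each library for its GC trend. The Spearman correlation over the subunit genes is -0.65 on the left and -0.07 on the right, and Gabrg1, Gria4 and Glrb lie at the GC-poor end while Grin1, Grik5 and Grin2d lie at the GC-rich end.

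No cell type marker passed the test either (smallest adjusted p = 0.174 in limma), and the summed levels of the lists overlapped between groups. All 9 astrocyte markers were higher in miR (median of the log2 differences 0.16), and 4 had an unadjusted p under 0.05, where 20.2% of all genes did. Their summed level was 1132 to 1299 RPKM in miR, compared with 961 to 1189 RPKM in PBS. Of these markers Gjb6 separated without overlap, as 0.482% of all genes did, and the others overlapped. Gjb6 measured 31.3 to 34.4 RPKM in miR and 27.6 to 30.5 RPKM in PBS. Of the 10 oligodendrocyte markers 9 were higher (median 0.15, 1 with an unadjusted p under 0.05), with sums of 574 to 934 and 411 to 1466 RPKM. Of the 8 microglia markers 6 were higher (median 0.08, 1 at that level), with sums of 95.4 to 113.7 and 85.5 to 109.7 RPKM. Of the 11 neuron markers 7 were higher (median 0.08, 1 at that level), with sums of 1616 to 1817 and 1592 to 1817 RPKM. The 8 endothelial markers were all lower (median -0.20, 4 at that level), with sums of 41.7 to 51.4 and 44.6 to 61.9 RPKM. No marker of these lists was at 0 in any library. The part of cell makeup in the differences of the subunit genes was not tested.

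Promoter windows are shown for 2 genes on each side of the comparison, chosen after their values were seen, to set the transcripts' base composition beside that of their start sites. They are from RefSeq on build GRCm38.p6, run from 250 bases before to 50 after the start, 5′ to 3′ on the gene's strand, and have the GC box GGGCGG or its reverse complement CCGCCC in capitals. The windows of Glrb (chr3:80913611-80913910, minus strand) and Gabrg1 (chr5:70842568-70842867, minus strand) belong to genes higher in miR, and those of Grin1 (chr2:25319138-25319437, minus strand) and Grik5 (chr7:25072320-25072619, minus strand) to genes lower in miR.
Glrb: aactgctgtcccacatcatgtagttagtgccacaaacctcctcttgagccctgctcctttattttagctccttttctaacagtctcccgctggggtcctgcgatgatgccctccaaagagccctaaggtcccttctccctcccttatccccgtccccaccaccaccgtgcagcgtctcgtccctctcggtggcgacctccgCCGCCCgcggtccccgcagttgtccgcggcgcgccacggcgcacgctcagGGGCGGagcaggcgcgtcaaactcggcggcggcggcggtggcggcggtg
Gabrg1: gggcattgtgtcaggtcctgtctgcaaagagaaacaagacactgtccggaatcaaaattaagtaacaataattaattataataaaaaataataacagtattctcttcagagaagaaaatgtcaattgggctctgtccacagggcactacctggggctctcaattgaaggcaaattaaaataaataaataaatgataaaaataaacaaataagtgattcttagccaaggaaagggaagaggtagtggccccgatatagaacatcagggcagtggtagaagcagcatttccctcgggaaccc
Grin1: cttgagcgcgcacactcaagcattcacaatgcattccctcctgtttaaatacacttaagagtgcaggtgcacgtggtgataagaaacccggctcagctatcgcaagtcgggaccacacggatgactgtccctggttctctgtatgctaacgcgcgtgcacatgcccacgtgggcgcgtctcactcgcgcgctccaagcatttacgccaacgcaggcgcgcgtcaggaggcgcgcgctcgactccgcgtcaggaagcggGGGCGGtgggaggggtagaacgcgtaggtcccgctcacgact
Grik5: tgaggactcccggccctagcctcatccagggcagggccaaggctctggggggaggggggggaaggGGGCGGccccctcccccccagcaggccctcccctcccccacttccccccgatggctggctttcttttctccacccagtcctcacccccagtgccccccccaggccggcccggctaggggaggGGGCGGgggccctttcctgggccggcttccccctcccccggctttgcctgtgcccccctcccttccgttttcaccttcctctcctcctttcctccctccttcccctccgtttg

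These windows do not divide as the transcripts do. Glrb, with a transcript GC content of 40.8%, has a promoter of 65.7% GC with 30 CpG dinucleotides, close to Grin1 with 60.7% and 33. Gabrg1 has 38.3% and 3 CpG, and Grik5 72.0% and 10. The GC box, searched on both strands, is present in 22 of 42 windows of the subunit genes (52.4%), which cover 35 of the 51 genes, and in 35.7% of all 32851 windows. The latter were not limited to tested genes, so the shares are of unlike sets.

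Seed matches of the injected microRNAs were common in the subunit genes, whose 3′ UTRs are long. Of 42 subunit genes with a 3′ UTR, 25 (59.5%) held a match to at least 1 of the 6 seeds, beside 44.3% of 12431 genes. Their median 3′ UTR length was 2023 bases, against 1009 for all genes. The match to miR-204 was the most frequent, in 12 genes (28.6%, beside 14.9% of all), then that to miR-30a and miR-30c in 10 (23.8%, beside 15.1%). The sites shown are 1 each in genes with small p-values, with the match to the seed in capitals and U written as T.
Gabrb2, miR-30a and miR-30c: tcatttaaagggTGTTTACgttgtatatat
Glrb, miR-32: aaagtattatttGTGCAATtgcc
Gabrg1, miR-204: ttaagtgctacaAAAGGGAttcacaagttc

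Over the 6 seeds together, the median log2 difference was 0.08 for the 25 subunit genes with a match and 0.03 for the 17 without, beside 0.03 and -0.003 over all genes. By single seed the order of the medians varied. Subunit genes with a match had the higher median for miR-204 (0.11 against 0.06 without), miR-32 (0.11 against 0.06), miR-532-3p (0.08 against 0.07) and miR-30a and miR-30c (0.08 against 0.06), and the lower one for miR-29c (0.01 against 0.08) and miR-698 (0.06 against 0.08). Genes with a match that were higher in miR numbered 11 of 12 for miR-204, 8 of 10 for miR-30a and miR-30c, 7 of 7 for miR-532-3p, 5 of 6 for miR-32, 3 of 3 for miR-698 and 2 of 4 for miR-29c, where 72.1% of all tested subunit genes were higher. A match is a run of 7 letters and does not show that a site is used.

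The genes of proteins that anchor and assist these receptors were higher in miR in 49.2% of cases, beside 72.1% of the subunit genes; the difference between the lists was not tested. Of 20 partner genes of GABA and glycine receptors 12 were higher and 8 lower in miR (median log2 difference 0.02), and 4, or 20%, had an unadjusted p under 0.05 (1 higher, 3 lower). Of 41 partners of glutamate receptors 18 were higher and 23 lower, with a median of -0.03 and 4, or 9.76%, at that level (1 higher, 3 lower). Neither share exceeded the 20.2% of all tested genes. No partner was called by limma after adjustment, beside 0% of all genes.

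Shisa7, which encodes an auxiliary subunit of GABA-A receptors, ran from 9.63 over 10.2 to 11.1 RPKM in miR, compared with 10.7 over 15.9 to 20.3 RPKM in PBS. In PBS replicates 7 and 11 it measured 10.7 RPKM each, inside the miR range, and in the other 4 PBS libraries 15.7 to 20.3 RPKM. The log2 difference was -0.49 (standard error 0.132, adjusted p = 0.174 in limma) and, without those 2 libraries, -0.71, given with no test because the libraries left out are those that lay with miR. Gabarapl1, a relative of the GABA-A receptor trafficking gene Gabarap and the most abundant partner, measured 314.9 ± 5.66 and 313.2 ± 31.1 RPKM.

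Shank1, a scaffold of excitatory synapses, ran from 15.8 over 19.8 to 23.1 RPKM in miR, compared with 19.8 over 24.7 to 27.5 RPKM in PBS, a log2 difference of -0.31 (standard error 0.107, adjusted p = 0.179 in limma). Dlg1, which encodes the scaffold SAP97 of AMPA receptors, measured 27.6 ± 2.04 RPKM in miR against 24.7 ± 2.24 RPKM in PBS, a log2 difference of 0.16 (adjusted p = 0.216 in limma). Nsf, which encodes an ATPase that binds the Gria2 product, measured 173.2 ± 9.45 and 165.3 ± 7.95 RPKM. The transcript GC content was 61.4% for Shank1 and 43.8% for Dlg1, on the same sides as in the subunit genes.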

How the data were processed

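Levels were deposited by the authors as RPKM, 1 table of 30399 RefSeq transcript rows with 1 column per animal, per the file headers. The submitters' processing notes name mm9 and edgeR without their role; the aligner, the read counter, its use of strand and any scaling were not given in the sources used here. Poly-A libraries were made with a stranded kit from 250 ng of total RNA and run on 2 lanes, per the labels' protocols and the series design. Rows that share reads (isoforms, overlapping genes) were not separated. All values are multiples of 0.00005. The files give no counts; depth was taken from the spacing of low values in intronless receptor genes.

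The row of highest mean stood for a gene, for subunit genes among the rows with its symbol; 11 of the 51 subunit genes had more than 1 row. Of 913 rows without a symbol, 868 were named by accession, but membership used the deposited symbols only. limma 3.58.1 (R 4.3.3) compared 6 miR with 6 PBS libraries on log2(RPKM + 0.5) with a mean-variance trend, and 2-sided p-values were adjusted by Benjamini-Hochberg over the 13273 genes of mean 1 RPKM or more. A difference on this scale understates the change of low genes. In a simulation of miR against PBS over 13273 genes, 200 of them changed, 87% of changes of 0.5 and 99% of changes of 1 on the log2 scale were recovered, with 5.58% of calls false. Its noise was drawn independently for each gene and library, without the split of PBS or the trend with GC content. These rates therefore need not hold for the real libraries. Subunit shares are the RPKM of a gene over the sum of its class in the same library. Counts and sums include 5 subunit genes and 1 partner gene that are not reported by name here. Otherwise named in full are the gene of highest mean in each class, the 10 subunit genes of smallest p, and in each partner list the 2 of smallest p and the most abundant. GC content and 3′ UTRs are from GENCODE transcripts of build GRCm38 matched by accession (98.8% of tested genes), promoters and microRNAs from RefSeq. Tables were made with Python 3.11.15 and pandas 2.3.3, and figures with matplotlib 3.10.9. The fit was repeated with a pseudocount of 0.1 or 1 RPKM, without the filter or with one at 5 RPKM, with median scaling, quantile normalization, GC correction in 20 bins, library weights, means over transcript rows, robust empirical Bayes, and libraries left out. The members and lists were chosen with earlier results of these data known.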

Additional observations from a re-analysis of the deposited data

Results flagged for a closer look

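Of 76 groups of 6 libraries looked at (38 subunit genes in miR and in PBS), 4 had a library far from the other 5, with a gap beyond Dixon's 95% critical value; chance gives about 1 group in 20. In PBS, Glra2 measured 29.98 RPKM in replicate 7 (19.8 to 23.6 RPKM in the others), and Glra3 measured 20.5 RPKM in the same library (10.2 to 13.8 RPKM). In miR, Gabra3 measured 48.9 RPKM in replicate 2 (54.4 to 57.6 RPKM in the others) and Grin2a 1.85 RPKM in replicate 4 (1.23 to 1.44 RPKM).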

How the results depend on the processing

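The count of subunit genes called by limma, 0 of 43, was 12 with library weights, 14 without PBS replicates 7 and 11, 1 with GC correction without those 2 libraries, and 0 to 2 with each library left out. For all genes the counts were 3023, 3107, 1400 and 0 to 909 (909 without PBS replicate 7, 429 without PBS replicate 11, 1 without miR replicate 3), and for partner genes 11, 13, 2 and 0 to 1. Subunit genes at an unadjusted p under 0.05, 9 as reported, were 1 with GC correction, 21 with library weights, 20 without PBS replicates 7 and 11, 1 without PBS replicates 8, 9, 10 and 12, 4 with GC correction without PBS replicates 7 and 11, and 7 to 14 with each library left out (14 without PBS replicate 11). Leaving out PBS replicates 8, 9, 10 and 12, and GC correction without PBS replicates 7 and 11, were chosen after seeing the data. With median scaling, genes at an unadjusted p under 0.05 divided into 1709 higher and 1227 lower in miR, and subunit genes into 9 and 3.

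Without PBS replicates 8, 9, 10 and 12 the median over subunit genes was -0.04, and the log2 differences of Gabrq, Glra2, Grin3a, Grm5 and Grm3 reversed to -0.13, -0.0639, -0.0892, -0.0281 and -0.055. Gabbr1 became 0.0052 with median scaling, 0.0014 with quantile normalization, 0.0168 with GC correction, 0.0015 with library weights and 0.0347 with GC correction without PBS replicates 7 and 11. With GC correction Glra2 was -0.0121 and Grm5 -0.0177 (-0.0068 also without PBS replicates 7 and 11). Gabarapl1 was -0.0104 with quantile normalization, -0.0467 with library weights and -0.0004 without PBS replicates 7 and 11. With single libraries left out Gabbr1 ranged from -0.0393 to 0.0129, Grid1 from -0.0443 to 0.0022 and Gabarapl1 from -0.0405 to 0.038, so these 3 changed sign. The cause was not tested. Over 21 tested genes named, 474 of 525 values kept their direction and side of the threshold, 30 passed it and 21 reversed. No paired analysis was possible because the replicate numbers of the groups, 1 to 6 and 7 to 12, share none.

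Sequencing depth limits the genes near 0: Gabra6, Gabrr3 and Grm6 were not detectable in most libraries at this depth. Differences of the size seen here, up to 0.28 on the log2 scale, were smaller than the sizes tested on simulated data.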
